A study of Homo sapiens with 12 samples.

Results

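The cytosolic ribosomal protein genes encode the protein part of the ribosome that translates nuclear mRNAs. Members were taken by symbol: RPL or RPS followed by a number with an optional A, X or L, the stalk genes RPLP0 to RPLP2, and RPSA. The rule found 81 of the 26364 genes in the count files, 49 of the large and 32 of the small subunit, and used no measured value. Reads per gene were counted by RNA-seq in HL-60, an established human line of promyelocytic leukemia cells that mature toward neutrophils under all-trans retinoic acid (ATRA). The 4 groups were untreated cells (0 h) and cells given 1 µM ATRA for 4 h, for 2 d or for 4 d, with 3 libraries in each group and 12 in all. All groups are the same line in the same medium, and no time-matched untreated cells were analysed here, so time in ATRA and time in culture cannot be told apart. Whether replicates came from separate cultures is not in the labels, so each p-value rests on the spread among the libraries, which may be technical.

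Libraries held 7866757 to 13658177 reads assigned to genes. One library, 4 h replicate 1, listed reads in 22265 genes against 15198 to 15798 in the other 11, and 28.1% of its reads lay outside genes. Pairs of replicates were compared by chi-square per degree of freedom, which is larger where libraries differ more. At 0 h it was 98.0 and 77.8 for pairs with replicate 2 and 18.7 for the other pair. At 4 h it was 47.8 and 30.8 with replicate 3 and 6.15 without it. At 4 d it was 54.7 and 42.8 with replicate 1 and 3.47 without it. At 2 d it was 7.02 to 12.7. The 10 markers of the promyelocytic stage summed to 32400 to 45871 CPM (reads scaled to a common library size) at 0 h, 41385 to 69936 at 4 h, 31029 to 39393 at 2 d and 10281 to 10984 at 4 d, most of it MPO (mean 28001 CPM at 0 h). Of these 10, 7 fell at 4 d, CD33 rose (0.56 on the log2 scale), and SPI1 and KIT did not pass the test (0.33 and 0.12). The 6 markers of maturing myeloid cells, among them ITGAM and CYBB, summed to 560 to 899 CPM at 0 h and to 4720 to 6542 CPM at 4 d. The 20 markers of other cell types summed to 14.4 to 35.02 CPM in every library, with HBA1 at 0 in all 12. Only 5 of them could be tested, and at 4 d 2 were higher and 1 lower (28.1% and 29.7% of all tested genes). Mean CPM at 0 h and 4 d was 0.859 and 8.25 for COL1A1, 0.562 and 6.18 for CD3E and 11.7 and 5.82 for CD79A. COL1A2, VWF, HBB and MS4A1 had reads only in 4 h replicate 1. The part of this change of stage in the changes of the members was not tested.

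Each ribosome carries a single copy of nearly all of these proteins, and cells make them in matched amounts with ribosomal RNA. Growing and dividing cells devote a large part of their mRNA to them, and the transcription factor MYC is a known driver of their genes. Their mRNAs begin with a C followed by a stretch of pyrimidines, the 5' terminal oligopyrimidine (TOP) tract, through which the kinase complex TORC1 and the RNA-binding protein LARP1 control their translation and stability.

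The tract can be read around the annotated starts, and the windows below are shown because they set members with large falls at 4 d beside members that did not pass the test there. RefSeq's promoter table (GRCh38.p14) held a start for 64 of the 81 members. Each window runs 30 bases, from 10 before the annotated start to 20 after it, 5' to 3' on the coding strand, and capitals mark its longest run of C and T. Where a gene had several starts, the start with the longest run is shown. The first 4 windows belong to members that stayed closest to the shared pattern (RPL37A, RPL24) or are abundant (RPS3, RPLP0).
RPL37A: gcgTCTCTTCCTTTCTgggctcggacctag
RPL24: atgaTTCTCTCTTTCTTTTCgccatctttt
RPS3: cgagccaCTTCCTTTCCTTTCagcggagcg
RPLP0: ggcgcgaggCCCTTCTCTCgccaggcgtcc
The next windows belong to RPS9, RPLP1 and RPS19, which, like RPLP0 above, did not pass the test at 4 d.
RPS9: gcttccgcgCCTCTTTCTCagtgaccgggt
RPLP1: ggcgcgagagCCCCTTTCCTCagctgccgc
RPS19: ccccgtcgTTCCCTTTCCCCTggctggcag
The last windows belong to members with early or large falls, RPS26, RPS21 and RPL17, and to RPS27L, a paralog of RPS27.
RPS26: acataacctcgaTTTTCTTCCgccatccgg
RPS21: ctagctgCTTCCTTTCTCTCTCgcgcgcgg
RPL17: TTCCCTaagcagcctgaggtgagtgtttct
RPS27L: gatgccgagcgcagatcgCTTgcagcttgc
The windows lie at chr2:216498834-216498863 (RPL37A, plus strand), chr3:101686699-101686728 (RPL24, minus), chr11:75399508-75399537 (RPS3, plus) and chr12:120201092-120201121 (RPLP0, minus). Those of the second set lie at chr19:54200848-54200877 (RPS9, plus), chr15:69452808-69452837 (RPLP1, plus) and chr19:41860245-41860274 (RPS19, plus). Those of the third set lie at chr12:56041908-56041937 (RPS26, plus), chr20:62387093-62387122 (RPS21, plus), chr18:49492446-49492475 (RPL17, minus) and chr15:63157458-63157487 (RPS27L, minus). RPS9 has an uninterrupted tract of 10 pyrimidines that opens 1 base before its annotated start, as in RPLP0. RPL17 and RPS27L have runs of 6 and 3 bases, and the RPL17 run ends before its annotated start.

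A run of at least 8 pyrimidines stood in this window at 56 of the 79 member starts (70.9%) and at 4409 of the 35037 starts of other genes (12.6%). The median longest run was 11 bases over the 64 members, each at its start with the longest run, and 4 bases over the other starts. No such choice was made among the other starts, so these medians are not measured alike. At the annotated first base 70.9% of member starts had C or T against 21.8% of other starts. In the whole 300-base promoter entry, from 250 before to 50 after the start, the GABP-type ETS motif CCGGAAG was found on either strand at 34.2% of member starts and 10.2% of others. The SP1-type motif GGGCGG was found at 55.7% and 44.9%, the YY1-type motif AAGATGGC at 7.59% and 2.88%, and the TATA box TATAAA at 7.59% and 11.5%. The E-box CACGTG, a palindrome that MYC and MAX bind, was found at 5.06% of member starts and 7.26% of others. Motifs were searched letter for letter, none contains another, and a match describes the sequence, not binding.

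**Figure D1:**
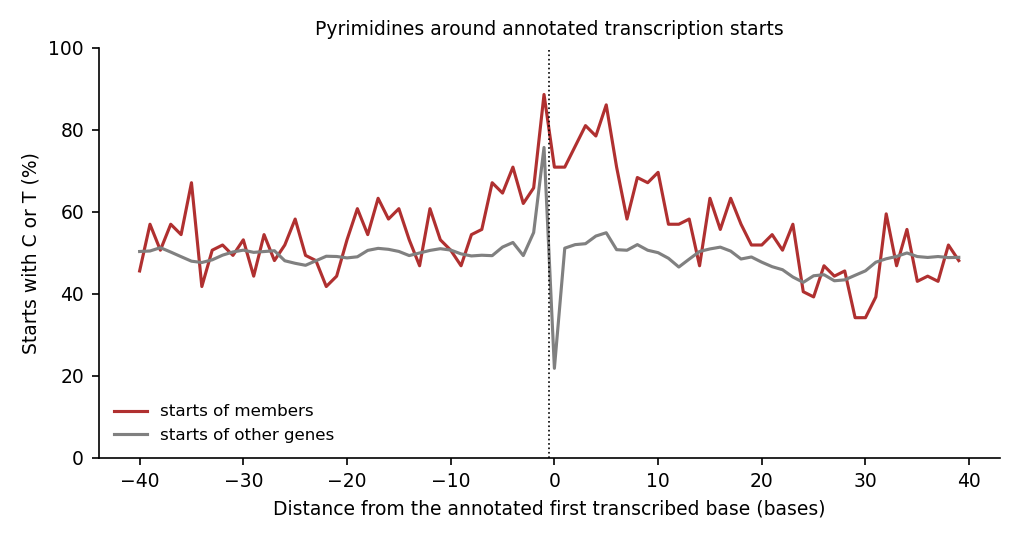
Share of annotated starts with C or T (y axis, %) at each distance in bases from the first transcribed base at 0 (x axis), for 79 starts of 64 members (red) and 35037 starts of other genes (gray). Member starts hold more pyrimidines from just before the start to about 10 bases after it, with 70.9% against 21.8% at the start itself.

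Members were among the most abundant mRNAs in HL-60 cells, and their part of the library was smallest at 4 d. At 0 h they took 14.6%, 11.6% and 11.4% of the reads assigned to genes in the 3 libraries, and at 4 h 10.6%, 11.1% and 12.1%. At 2 d they took 9.23%, 11.2% and 10.9%, and at 4 d 7.60%, 7.16% and 7.38%. Each 4 d library was below each of the other 9, while the 0 h, 4 h and 2 d libraries overlapped. The means were 12.5% ± 1.79 (SD, n = 3) before ATRA, 11.3% ± 0.737 after 4 h, 10.4% ± 1.05 after 2 d and 7.38% ± 0.220 after 4 d. Both subunits held their smallest share at 4 d, and the ratio of large-subunit to small-subunit reads averaged 1.53 ± 0.0686 before ATRA, 1.51 ± 0.00830 after 4 h, 1.47 ± 0.0301 after 2 d and 1.496 ± 0.0344 after 4 d (SD, n = 3). In these bulk libraries fewer cells of a type and less RNA per cell cannot be told apart, and a share says nothing of the amount of RNA per cell.

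**Figure D2:**
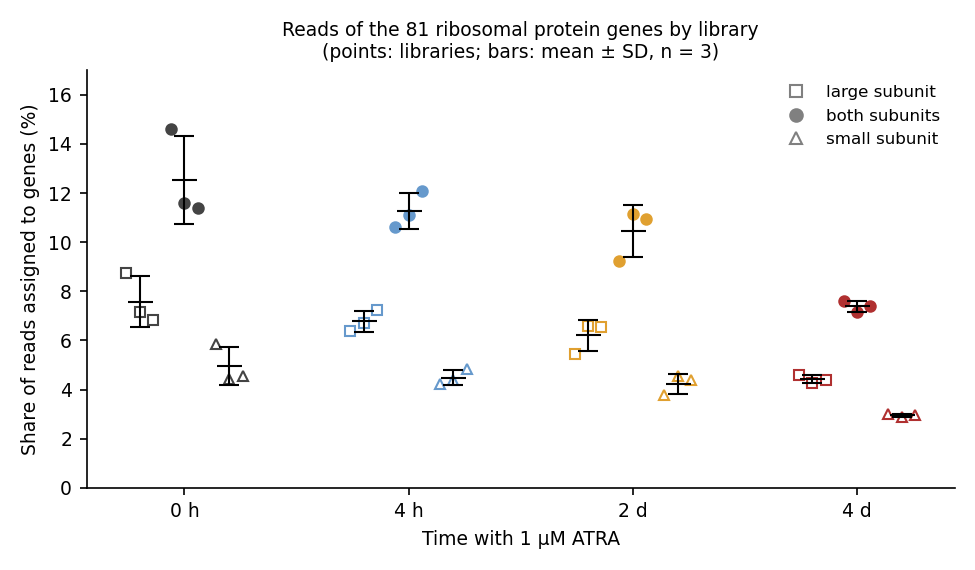
Share of reads assigned to genes (y axis, %) that fell in the 81 members (filled circles), the 49 large-subunit genes (squares) and the 32 small-subunit genes (triangles) in each library, by time with 1 µM ATRA (x axis); bars are mean ± SD, n = 3. The 4 d libraries, at 7.16% to 7.60% for both subunits together, sit below all others.

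Counts per gene ranged widely over the members. Over all 12 libraries, 47 members had a mean of at least 1000 CPM, 24 lay between 100 and 1000 CPM and 10 lay under 100 CPM. The 5 highest means were those of RPS2 (3957 CPM), RPS3 (3759 CPM), RPLP0 (3740 CPM), RPL8 (3518 CPM) and RPL3 (3358 CPM). RPS2 and RPS3 line the mRNA entry of the small subunit, RPL8 and RPL3 lie near the peptidyl transferase center, and RPLP0 is the base of the stalk that recruits translation factors. CPM does not correct for transcript length, so members were also set on a scale of CPM per kilobase of annotated transcript, for the 73 with a transcript model of at most 2000 bases. On that scale the 0 h median was 2093 CPM per kilobase, with quartiles at 1293 and 3097. RPS26 was 61st of the 73 at 0 h (746 CPM per kilobase), RPS9 had 3041 at 0 h and 3755 at 4 d, and RPS3 had 5196 and 2674.

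Several members were counted far below their partners in the same particle. Although every ribosome carries them, RPS18, RPL36A and RPL17 had means of 17.9, 9.76 and 6.77 CPM, RPS10 had 97 reads in all 12 libraries together and RPL21 had 1. The annotation at hand (GENCODE v29, GRCh38, a build other than the hg19 of the counts) names 66 pseudogenes of RPL21, 26 of RPL17 and 19 of RPL36A, and 39.4% of the exon bases of RPS10 and 32.7% of those of RPL17 lie in another gene on the same strand. Reads with several alignments made up 4.50% to 5.70% of each library and reads that met several genes 2.74% to 3.90%; how far they hold reads of these members was not tested. The levels of these members are therefore uncertain, and so are their fold changes. Reads in the 31 pseudogenes of members that the files list came to 0.120% to 0.198% of the members' reads, most of them in RPSAP58, a near copy of RPSA (13948 reads over the 12 libraries).

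Of the 81 members, 78 had enough reads to be tested. The untested members were RPL21, RPL10L and RPL3L. RPL10L and RPL3L are copies known from testis and striated muscle: RPL10L had 3 reads, all in 4 h replicate 1, and RPL3L had 3 reads before ATRA, 2 after 4 h, 0 after 2 d and 6 after 4 d.

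After 4 h in ATRA no member passed the test (edgeR quasi-likelihood test, Benjamini-Hochberg adjusted over 12671 genes, threshold 0.05). None was called higher, against 2.00% of all tested genes, and none was called lower, against 4.23%. DESeq2 and limma-voom also called 0, and 2 members had an unadjusted p under 0.05 with edgeR. These were RPL39, of the exit tunnel, and RPL13A. RPL39 stood at 1476, 935 and 821 CPM at 0 h and 600, 649 and 799 CPM at 4 h (log2 fold change -0.66 ± 0.23 SE, adjusted p = 0.105). It was the 1 member whose 4 h libraries all lay below its 0 h libraries, against 12.5% of all tested genes. The median change of the members was -0.16 on the log2 scale, and that of all tested genes was 0.00. Replicate 2 of 0 h, replicate 3 of 4 h and replicate 1 of 4 d differed most from the other libraries of their groups. When they were left out together, 11 members were called lower at 4 h. These were 14.1% of the members tested, near the 12.6% of all tested genes called lower in that fit. The libraries left out singly gave 0.

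At 2 d 16 members had fallen and none had risen. Among all tested genes 18.7% were called lower and 16.9% higher, and the members called lower made up 20.5% of those tested, near that background. The median change was -0.39 on the log2 scale, against -0.02 for all tested genes. The 2 d libraries lay wholly below the 0 h libraries for 41 members, against 25.0% of all tested genes. The number called rests on single libraries: it fell to 7 when 0 h replicate 1 was left out, to 4 when 2 d replicate 1 was, and to 10 when 2 d replicate 3 was. It rose to 26 on leaving out 0 h replicate 2 and to 25 on leaving out 4 h replicate 3. DESeq2 called 29 (37.2% of members, against 20.4% of all tested genes). With the fit corrected for transcript GC content and length the median was -0.06, with 15 called lower and 2 called higher. The 15 were 19.2% of the members, against 25.9% of all tested genes called lower in that fit. It called 2411 of 11971 tested genes higher.

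By 4 d nearly the whole family had fallen. Of 78 tested members 70 were called lower (89.7%), 28 of them by more than 2-fold, and 0 were called higher; among all tested genes 29.7% were lower and 28.1% higher. The 4 d libraries lay wholly below the 0 h libraries for 68 members, against 29.9% of all tested genes. The median log2 change was -0.90, with quartiles at -1.14 and -0.76, against 0.00 for all tested genes. Both subunits took part: 42 of 46 large-subunit and 28 of 32 small-subunit members fell, each with a median of -0.90. Member transcripts are short (median 707 bases against 2673 for all tested genes), and with the fit corrected for GC content and length the median was -0.42, with 49 members lower and 1 higher. In that fit 62.8% of the members and 33.3% of all tested genes were called lower, and 3898 of 11971 tested genes higher. The 0 h group is shared by the 4 h, 2 d and 4 d comparisons, so their values are not independent of each other.

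**Figure D3:**
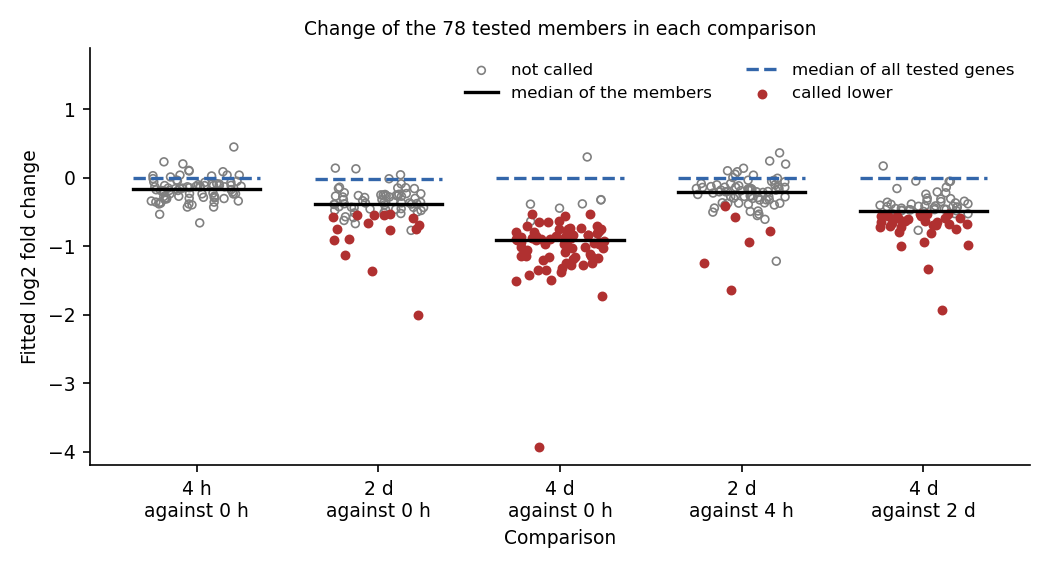
Fitted log2 fold change (y axis) of the 78 tested members in each of the 5 comparisons (x axis); filled red points were called lower, open gray points were not called, solid bars are the members' medians and dashed bars the medians of all tested genes. The members' median is -0.16 at 4 h, -0.39 at 2 d and -0.90 at 4 d, while that of all genes stays near 0.

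More members passed the test from 2 d to 4 d than from 4 h to 2 d; the difference between these steps was not tested. From 4 h to 2 d 6 members fell and none rose, against 18.0% of all tested genes lower and 16.5% higher, a share of the members (7.69%) below that background. The 2 d libraries lay below the 4 h libraries for 21 members, against 27.3% of all tested genes. From 2 d to 4 d 32 members fell and none rose, against 13.5% of all tested genes lower and 13.1% higher, with a median of -0.49. The 4 d libraries lay below the 2 d libraries for 48 members, against 24.7% of all tested genes. The 32 calls became 12 on leaving out any of 2 d replicate 2, 2 d replicate 3 and 4 d replicate 3, and 13 on leaving out 4 d replicate 2. The mean CPM fell at each step in 58 of the 78 tested members, and 4 d held the lowest of the 4 means in 74. In these 5 comparisons edgeR gave 0 members higher at an unadjusted p under 0.05, and DESeq2 and limma-voom called 0 higher.

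**Figure D4:**
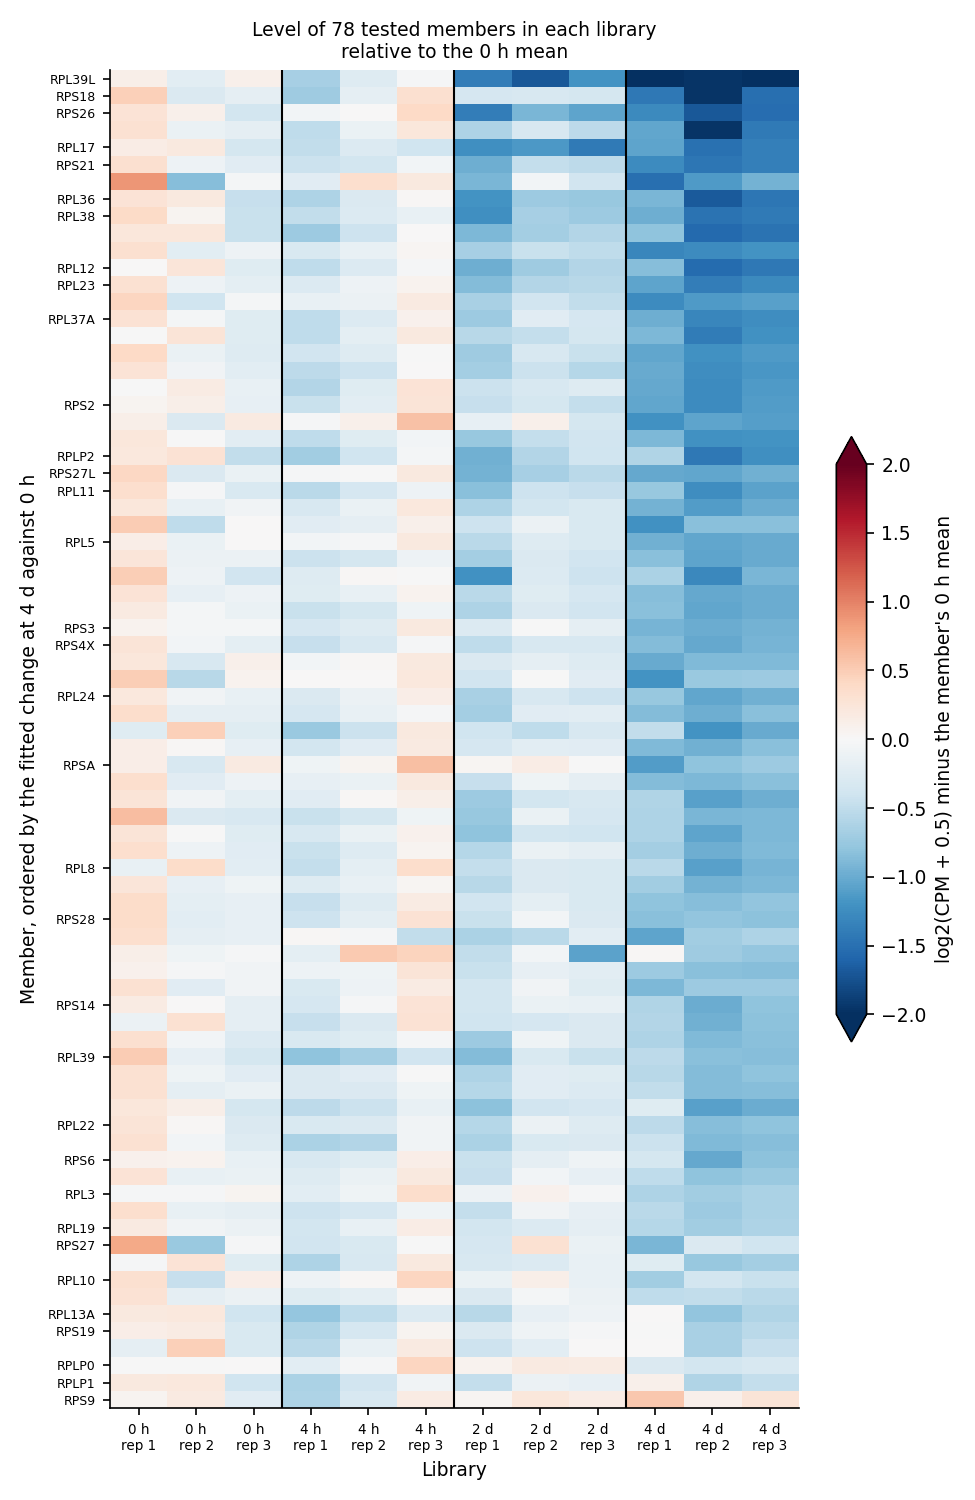
Level of each of the 78 tested members (rows, ordered by the fitted change at 4 d against 0 h) in each of the 12 libraries (columns), as log2(CPM + 0.5) minus the member's 0 h mean; blue is lower and red is higher, and values beyond 2 are drawn at the end of the scale, and a selection of rows is labelled. The 3 columns of 4 d are blue in nearly all rows, RPL39L, RPS26 and RPL17 are already blue at 2 d, and the bottom row, RPS9, is not blue at 4 d.

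RPS3 and RPS2, at the mRNA entry of the small subunit, fell from 2 d to 4 d and had not passed the test at 2 d against 0 h. RPS3 stood at 4730, 4389 and 4381 CPM at 0 h, 3557, 3760 and 5159 at 4 h, 3723, 4484 and 3972 at 2 d and 2354, 2252 and 2342 at 4 d. Its 4 d libraries lay below all others and those of the first 3 times overlapped. Its log2 change was -0.15 ± 0.16 (SE) at 2 d against 0 h (adjusted p = 0.503) and -0.81 ± 0.16 from 2 d to 4 d (adjusted p = 0.00306). RPS2, its neighbour at the entry, fell by 0.70 ± 0.18 on the log2 scale from 2 d to 4 d (adjusted p = 0.0122).

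RPS9, the third protein of the mRNA entry, was the 1 member of the 78 tested with a 4 d estimate above 0. Its libraries read 2231, 2415 and 1822 CPM at 0 h, 1396, 1707 and 2400 at 4 h, 2207, 2497 and 2381 at 2 d and 3127, 2308 and 2552 at 4 d. The 0 h and 4 d libraries overlapped, and 4 d replicate 1 was the highest of the 12. The log2 change at 4 d was 0.30 ± 0.20 (adjusted p = 0.220), it was 0.37 under scaling by library totals alone (adjusted p = 0.0407) and 0.66 with GC content and length corrected (adjusted p = 1.24e-05). Across the 12 libraries its log2 CPM had r = -0.27 with the mean of the other members, while 64 of the 78 had r above 0.8 and 50 above 0.9; these are descriptions over libraries that share time and depth. RPL37A (r = 0.99) and RPL24 (r = 0.99) were the members most like the rest. The rows of RPS27 (r = 0.54), RPLP1 (0.55), RPL13A (0.56) and RPL28 (0.56) followed the others least after RPS9.

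At the mRNA exit, RPS26 had fallen by 2 d, and RPSA fell from 2 d to 4 d. RPS26, which is placed on the small subunit by the chaperone TSR2, stood at 553, 489 and 353 CPM at 0 h and 440, 460 and 605 at 4 h. It stood at 174, 243 and 220 CPM at 2 d and 188, 142 and 158 at 4 d. All 6 libraries of 2 d and 4 d lay below all 6 of 0 h and 4 h. The log2 change was -1.13 ± 0.21 at 2 d (adjusted p = 0.00112) and -1.51 ± 0.21 at 4 d (adjusted p = 4.51e-05), and from 2 d to 4 d it was -0.38 ± 0.21 (adjusted p = 0.197). RPS26 has 30 pseudogenes in GENCODE v29, and its calls at 2 d and 4 d held under all 24 other settings in which single members were followed (tests, scalings, filters, offsets and libraries left out, without the stricter threshold and the settings added after seeing the data). RPSA, the laminin-receptor homolog, stood at 2152, 1572 and 2216 CPM at 0 h, 2009, 2172 and 1943 at 2 d and 904, 1115 and 1180 at 4 d. Its 0 h and 2 d libraries overlapped and its 4 d libraries lay below both. Its log2 change was 0.04 ± 0.20 at 2 d (adjusted p = 0.884) and -0.94 ± 0.21 from 2 d to 4 d (adjusted p = 0.00490). Whether the timing of RPS26 and RPSA differs was not tested. RPS14, lost in the 5q- syndrome, and RPS28 fell by 0.80 and 0.84 on the log2 scale at 4 d (adjusted p = 0.00236 and 0.00395). Thus all 4 exit proteins were lower at 4 d, as were 70 of all 78 tested members and 29.7% of all tested genes.

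**Figure D5:**
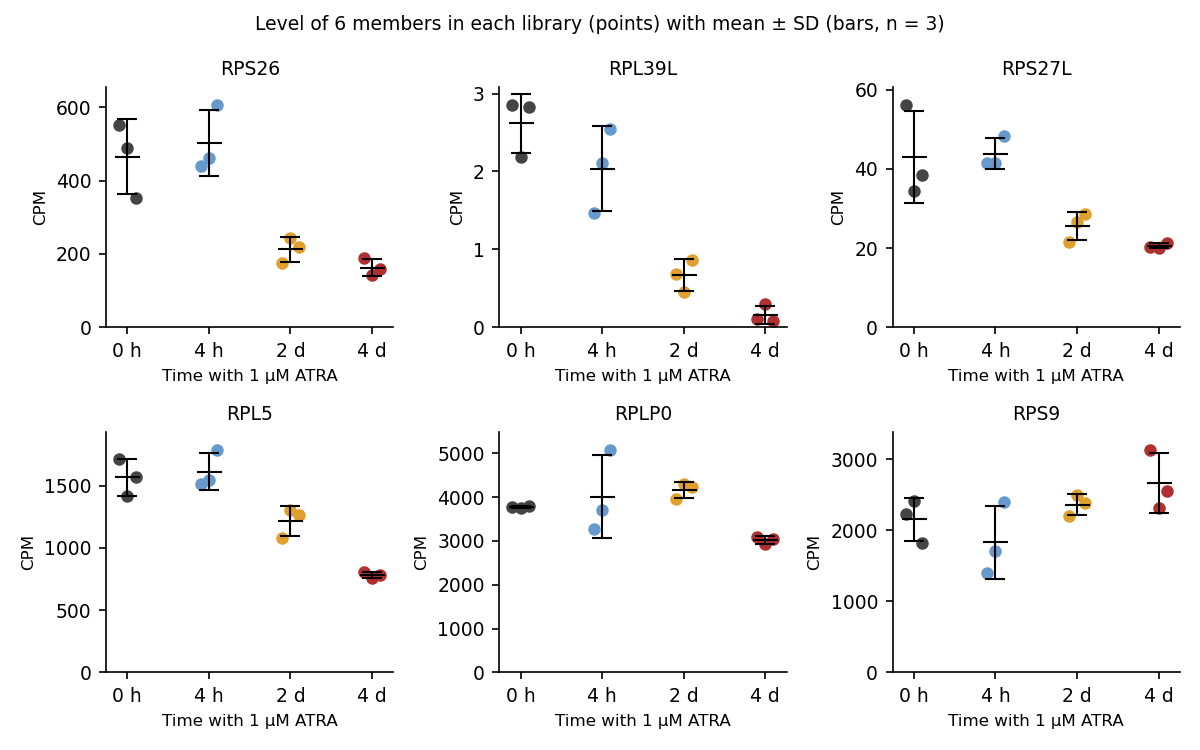
CPM (y axis, from 0) of 6 members in each library (points) by time with 1 µM ATRA (x axis), with mean ± SD (bars, n = 3). RPS26, RPL39L and RPS27L are low from 2 d on, RPL5 and RPLP0 are lowest at 4 d, and the 4 d libraries of RPS9 overlap those of 0 h.

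Among the other small-subunit members fixed by role, RPS6, the substrate of S6 kinase, fell at 4 d by 0.71 ± 0.20 (adjusted p = 0.00777), and RPS4X, encoded on the X chromosome, by 0.95 ± 0.17 (adjusted p = 0.000318). RPS19, the gene most often mutated in Diamond-Blackfan anemia, read 2424, 2460 and 1792 CPM at 0 h and 2188, 1408 and 1519 at 4 d. The groups overlapped through 4 d replicate 1, with a log2 change of -0.38 ± 0.22 (adjusted p = 0.147) that became -0.61 (adjusted p = 0.0233) without that library. That omission is 1 of the 24 other settings. The list used here for this anemia, which may not hold every gene mutated in it, had 9 tested members. Of these 7 fell at 4 d, RPS19 and RPS10 being the others on the list, with a median of -0.86. Among all tested members 89.7% were called lower at 4 d, and among all tested genes 29.7%. RPS18, of the small-subunit head, fell by 1.73 ± 0.28 (adjusted p = 0.000146), at the low counts described above.

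The 2 proteins that carry 5S RNA into the large subunit, RPL5 and RPL11, both fell; when free they bind MDM2. RPL5 stood at 1716, 1419 and 1573 CPM at 0 h, 1510, 1546 and 1785 at 4 h, 1082, 1309 and 1264 at 2 d and 803, 759 and 781 at 4 d. Each 2 d library lay below each 0 h and 4 h library, and each 4 d library below each of 2 d. Its log2 change was -1.01 ± 0.15 at 4 d against 0 h (adjusted p = 7.22e-05) and -0.64 ± 0.15 from 2 d to 4 d (adjusted p = 0.00691). The change at 2 d against 0 h, -0.37 ± 0.15, did not pass (adjusted p = 0.0706), and the call from 4 h to 2 d (-0.41, adjusted p = 0.0486) held under 11 of those 24 settings. RPL11 fell by 0.58 ± 0.21 at 2 d (adjusted p = 0.0411) and by 1.03 ± 0.21 at 4 d (adjusted p = 0.000809); its 2 d call held under 15 of these 24.

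Of the 4 stalk members, which together recruit translation factors, 2 fell at 4 d, against 70 of all 78 tested members and 29.7% of all tested genes. RPLP0 stood at 3771, 3755 and 3789 CPM at 0 h, 3261, 3708 and 5067 at 4 h, 3957, 4292 and 4234 at 2 d and 3091, 2918 and 3034 at 4 d. The 2 d libraries were above and the 4 d libraries below those of 0 h, by amounts that did not pass the test (0.14 ± 0.16, adjusted p = 0.528, and -0.32 ± 0.16, adjusted p = 0.109); without 4 h replicate 3 the 4 d change was -0.32 with adjusted p = 0.0238. RPLP1, 1 of the acidic proteins that RPLP0 carries, stood at 3911, 3951 and 2605 CPM at 0 h and 3687, 2250 and 2456 at 4 d (-0.32 ± 0.23, adjusted p = 0.256), and at -0.57 without 4 d replicate 1 (adjusted p = 0.0388). RPLP2, its partner, fell by 1.09 ± 0.27 (adjusted p = 0.00375), and RPL12, which holds the stalk to the ribosome with RPLP0, by 1.25 ± 0.22 (adjusted p = 0.000257). The difference between RPLP0 and RPLP1 on one side and RPLP2 and RPL12 on the other was not tested.

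All 9 tested members listed at the exit tunnel, the channel by which the growing chain leaves, fell at 4 d, with log2 changes from -0.64 (RPL19) to -1.41 (RPL17). In the whole family 70 of 78 tested members fell (89.7%), so this count is near the family's share. The share of all tested genes called lower was 29.7%. RPL17 read 11.9, 12.3 and 8.28 CPM at 0 h, 7.42, 8.71 and 7.97 at 4 h, 4.28, 4.54 and 3.69 at 2 d and 4.88, 3.47 and 3.83 at 4 d. Its 2 d and 4 d libraries lay below all others and overlapped each other, with -1.36 ± 0.21 at 2 d (adjusted p = 0.000317) and -0.05 ± 0.22 from 2 d to 4 d (adjusted p = 0.894). RPL22 fell by 0.73 ± 0.19 at 4 d (adjusted p = 0.00420). RPL39 fell by 0.78 ± 0.23 (adjusted p = 0.0111), a call lost without 0 h replicate 1 (-0.49, adjusted p = 0.0662) and with GC content and length corrected (-0.08, adjusted p = 0.637).

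Elsewhere in the large subunit, RPL36 and RPL38 fell at both later times. RPL36 changed by -0.91 ± 0.25 at 2 d (adjusted p = 0.0130) and -1.35 ± 0.26 at 4 d (adjusted p = 0.000533), and RPL38 by -0.89 ± 0.23 (adjusted p = 0.00928) and -1.31 ± 0.23 (adjusted p = 0.000320). The 2 d calls of both were lost without 2 d replicate 1, and that of RPL36 also without 0 h replicate 1. RPL23 fell by 0.57 ± 0.18 from 4 h to 2 d (adjusted p = 0.0246) and by 1.25 ± 0.18 at 4 d against 0 h (adjusted p = 6.20e-05). At 4 d RPL3 fell by 0.65 ± 0.16 (adjusted p = 0.00357) and RPL8 by 0.86 ± 0.23 (adjusted p = 0.00626). RPL10, the late-joining protein beside the P site, fell by 0.53 ± 0.21 (adjusted p = 0.0451), a call lost under 14 of those 24 settings. RPL13A, known outside the ribosome for translational silencing in myeloid cells, was at 358, 360 and 236 CPM at 0 h and 315, 181 and 205 at 4 d (-0.44 ± 0.24, adjusted p = 0.132); without 4 d replicate 1 the change was -0.72 (adjusted p = 0.0152).

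The paralogs in the family that were measurable, RPL39L and RPS27L, both fell. RPL39L, a retroposed copy of RPL39 known from the testis, had 31, 24 and 29 reads at 0 h, 16, 29 and 30 at 4 h, 8, 6 and 7 at 2 d and 1, 3 and 1 at 4 d. The 2 d libraries lay below those of 0 h and 4 h, and the 4 d libraries below those of 2 d. The pooled 4 d reads, 5 against 84 at 0 h, gave a ratio of 0.0613 per scaled read (95% exact interval 0.0194 to 0.149, counting error only), and the fit gave a log2 change of -3.93 ± 0.48 at 4 d (adjusted p = 1.27e-05). Its partner RPL39 had a mean of 1077 CPM at 0 h, against 2.62 CPM for RPL39L. RPS27L, known as a p53-responsive copy of RPS27, stood at 56.1, 34.4 and 38.5 CPM at 0 h, 41.5, 41.6 and 48.3 at 4 h, 21.6, 26.5 and 28.7 at 2 d and 20.4, 20.1 and 21.3 at 4 d. Its 2 d and 4 d libraries lay below all of 0 h and 4 h, with -0.75 ± 0.18 at 2 d (adjusted p = 0.00654) and -1.06 ± 0.19 at 4 d (adjusted p = 0.000280), and the calls at both times held under all 24 of those settings. Scaled to the members' total, a setting added after seeing the data, neither passed (-0.41 at 2 d, adjusted p = 0.106, and -0.22 at 4 d, adjusted p = 0.328). Its partner RPS27 changed by -0.63 ± 0.31 at 4 d (adjusted p = 0.0975) with 0 h libraries spread from 871 to 2452 CPM; without 0 h replicate 2, the lowest of them, the change was -0.93 (adjusted p = 0.00651).

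Scaled to the members' own total, which removes the shared fall, 58 of 78 members did not pass at 4 d against 0 h. The members that rose in proportion were RPS9 (1.12 ± 0.13, adjusted p = 7.29e-06), RPLP1 (0.50 ± 0.15, adjusted p = 0.00877), RPLP0 (0.49 ± 0.13, adjusted p = 0.00356) and RPS19 (0.43 ± 0.14, adjusted p = 0.0147). In proportion 16 members fell (20.5%), among them RPL39L (-3.14), RPS18 (-0.89) and RPS26 (-0.68). Beside these counts, 7016 of the 12671 tested genes were called higher and 1259 (9.94%) lower in that fit. This scaling was chosen after seeing the data.

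The change at 4 d was set beside sequence and gene features, as a description. The 52 tested members with a run of at least 8 pyrimidines had a median log2 change of -0.86 at 4 d, 44 of them lower. The 10 with a shorter run had -1.04, with 10 lower. Beside these counts, 89.7% of all tested members and 29.7% of all tested genes were lower. The 27 tested members that host a small nucleolar RNA gene had a median of -0.91, and the 51 without had -0.88. Across the 78 members the 4 d change had r = 0.07 with transcript GC content, 0.13 with log length and 0.52 with mean level; these are across genes, which share libraries. By level, the 7 tested members under 100 CPM had a median of -1.41 and the 71 others -0.89.

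Genes that work with the members were described from lists of the pathway. Of 8 tested ribosomal protein genes outside the symbol rule 7 fell at 4 d. Among them were FAU, which encodes a ribosomal protein fused to a ubiquitin-like protein (-0.84 ± 0.22, adjusted p = 0.00511), GNB2L1, which encodes the ribosomal scaffold RACK1 (-0.93), RPL22L1 (-1.51) and RPL26L1 (-1.51). Of 20 mitochondrial ribosomal protein genes, the first 20 of that larger family by number, 19 fell and 1 rose: MRPS2 (-2.18), MRPL3 (-2.02) and MRPL12 (-1.90) fell most. Of 11 chaperones of single ribosomal proteins 10 fell, PDCD2L (-2.36), GRWD1 (-1.53) and BCCIP (-1.35) most. Beside these counts, 29.7% of all tested genes were called lower and 28.1% higher.

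The counts at 4 d that follow stand beside the same 29.7% of all tested genes lower and 28.1% higher. Of 21 other TOP mRNAs 13 fell and 1, TPT1, rose (0.40 ± 0.14, adjusted p = 0.0293); IMPDH2 (-1.89), VIM (-1.72) and LDHB (-2.18) fell. Of 11 genes of elongation and termination, which include the release factor genes ETF1 and GSPT1, the kinase gene EEF2K and EEF1E1, a part of the tRNA synthetase complex, 7 fell, EEF1E1 (-2.29), EIF5A (-1.87) and EEF1B2 (-1.34) most. EEF2, the translocase, fell by 0.62 ± 0.21 (adjusted p = 0.0219), and EEF1A1, the gene with the most reads among them, changed by -0.31 ± 0.15 (adjusted p = 0.0838). Of 22 genes of the TORC1 pathway 10 fell and 2 rose. TORC1 activity was not measured, and these counts give no direction for it. LARP1 fell by 0.49 ± 0.14 (adjusted p = 0.0106), EIF4EBP1 by 2.80 and LARP1B by 1.38, and DEPTOR went from 4.00 to 5.16 CPM at 0 h to 0 to 0.104 CPM at 4 d. Of 12 transcription factor genes tied to ribosomal protein promoters 4 rose, among them SP1 (1.09) and TAF1 (0.79), and 4 fell, shares near those of all tested genes. MYC fell from 1237, 1947 and 1814 CPM at 0 h to 404, 351 and 379 at 2 d and 238, 159 and 182 at 4 d (-3.11 ± 0.22 at 4 d, adjusted p = 1.08e-07). At 2 d MYC had changed by -2.14 ± 0.21 (adjusted p = 8.00e-06); its part in the changes of the members was not tested. Of 11 tested genes of ribosome rescue and turnover 6 fell and 2 rose, with ZNF598 (-1.44), ABCE1 (-1.41) and NUFIP1 (-1.34) lowest. Of 4 tested genes of the MDM2 and p53 response to free ribosomal proteins 0 fell and MDM4 rose (0.51 ± 0.20, adjusted p = 0.0465).

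Outside the family, genes at 10 CPM or more whose log2 CPM followed the mean of the members closely over the 12 libraries included MRPL54 (r = 0.98), TSR2 (0.98), SNHG5 (0.98) and CKS2 (0.97), out of 8674 compared. MRPL54 is a mitochondrial ribosomal protein, TSR2 the chaperone of RPS26, SNHG5 a host of small nucleolar RNAs and CKS2 a subunit of cell-cycle kinases. TSR2 had means of 51.99 CPM before ATRA, 50.2 after 4 h, 43.3 after 2 d and 33.1 after 4 d, and changed by -0.65 ± 0.14 at 4 d (adjusted p = 0.00115).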

How the data were processed

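RNA-seq reads of 12 HL-60 libraries were deposited by the authors as counts, whole numbers of reads per gene symbol with 5 classes of unassigned reads. Per the submitters' processing notes, the tools named are FastQC, Trim Galore 0.6.7, HISAT2 2.1.0 and HTSeq 1.99.2, and the build is hg19. The sources used here give no gene annotation, library kit or strand setting, so antisense and overlapping genes cannot be told apart. Counts keep only reads assigned to a single gene, as HTSeq reports the others in the unassigned classes, which can affect members with near-identical copies.

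Groups came from the labels. All 12 libraries were fitted together with edgeR 4.0.16 (R 4.3.3; TMM scaling, filterByExpr, quasi-likelihood test), and p-values were adjusted over all 12671 genes tested. A gene was called at an adjusted p under 0.05. CPM values use TMM-scaled totals, and log2 CPM a pseudocount of 0.5. The fit has 8 residual degrees of freedom, and 1 estimate of spread covers all 4 groups. Alternatives were DESeq2 1.42.0, limma-voom (limma 3.58.1), other scalings and filters, GC content and length offsets from GENCODE v29 transcripts (90.2% of genes matched, all 81 members), a replicate block and each library left out. The deviations of same-numbered libraries had a median r of -0.38 over 18 pairs, from -0.81 to 0.68. With 3 libraries in each group this cannot decide whether the numbers pair libraries. The labels do not say so, and the main fit used no pairing.

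Members, gene lists and role groups were chosen with earlier results of these data known. Members named were the 5 called with the largest fall in each comparison, the 5 highest and 3 lowest non-zero means, a list fixed by role, the paralog pairs and the member least like the rest. RPS21, RPS28, RPL4, RPL12, RPL15, RPL19, RPL24, RPL28 and RPL37A were named where a role group, a window, a likeness or a limit called for them, some after their values were seen. From other lists the 3 called genes with the largest change at 4 d were named, with further genes fixed by name. Some genes that these rules name are not reported here. Raw reads were not analysed here.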

Additional observations from a re-analysis of the deposited data

How the results depend on the processing

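At 4 d against 0 h 48 of the 70 members called lower were called under all 24 other settings in which single members were followed, at 2 d 4 of 16, from 4 h to 2 d 3 of 6 and from 2 d to 4 d 11 of 32. Of the 8 members not called at 4 d against 0 h, 6 were called under at least 1 of the 24. The omissions printed above for such members are single settings out of these 24, shown because they changed the outcome. Leaving out each library in turn gave 64 to 72 members lower at 4 d against 0 h, 4 to 26 at 2 d, 4 to 8 from 4 h to 2 d, 12 to 42 from 2 d to 4 d and 0 at 4 h. Without 4 h replicate 3, 1 member was higher from 4 h to 2 d, beside 1916 of 12934 tested genes. The same omissions moved the mean share from 11.5% to 13.1% at 0 h, 10.9% to 11.6% at 4 h, 10.1% to 11.05% at 2 d and 7.27% to 7.49% at 4 d. Of all reads in the files the share was 9.01% before ATRA, 8.13% after 4 h, 7.60% after 2 d and 5.16% after 4 d, and without the 20 most abundant other genes it was 13.9%, 12.8%, 11.7% and 8.12% in the same order.

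The replicate block treated same-numbered libraries as belonging together, which the labels do not state. It gave 9 members lower at 2 d (11.5%, against 15.0% of all tested genes). From 2 d to 4 d it gave 17 (21.8% against 10.2%), and at 4 d against 0 h 68 (87.2% against 27.1%). DESeq2 called 29 lower at 2 d (37.2% of members, against 20.4% of all tested genes). An adjusted p under 0.01 left 5 at 2 d (6.41% against 11.6%) and 7 from 2 d to 4 d (8.97% against 6.93%). Library totals alone gave 1 member higher at 4 d and 1 from 4 h to 2 d, beside 3653 and 2209 of 12671 tested genes. No filter on low counts gave 1 lower at 4 h (1.23%, against 5.21% of all tested genes). Replicate 2 of 0 h was also left out with replicate 1 of 4 h and of 4 d. Then 41 members were lower at 2 d (52.6%, against 24.0% of all tested genes). From 4 h to 2 d 23 were lower (29.5% against 23.7%), and from 2 d to 4 d 56 (71.8% against 18.4%). Leaving out replicate 3 of 4 h instead of its replicate 1 gave 11 lower at 4 h (14.1%, against 12.6% of all tested genes). At 2 d 50 were lower (64.1% against 27.3%), and from 2 d to 4 d 64 (82.1% against 21.9%). From 4 h to 2 d 11 were lower (14.1% against 26.6%) and 1 higher, beside 3324 of 12806 tested genes higher.

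GC content and length offsets gave 1 member higher and 1 lower at 4 h, 2 higher at 2 d, 1 higher at 4 d and 4 higher from 4 h to 2 d. Of 11971 tested genes 492, 2411, 3898 and 2627 were higher in the same order, and 838 were lower at 4 h. Under them RPL8 at 4 h (0.25), RPL15 at 4 d (0.034) and RPL15 from 4 h to 2 d (0.25) changed sign. Offsets estimated without the members, added after seeing the data, also gave 1 higher and 1 lower at 4 h, 2 higher at 2 d, 1 at 4 d and 4 from 4 h to 2 d. Of 11971 tested genes 492, 2409, 3879 and 2623 were higher in the same order, and 843 were lower at 4 h. GC content alone, also added, gave 1, 35 and 19 lower at 4 h, at 2 d and from 4 h to 2 d. These were 1.28%, 44.9% and 24.4% of the members, against 6.35%, 26.4% and 23.6% of all tested genes. Scaling to the members' total, also added, gave 2 higher and 6 lower at 2 d, 4 higher and 16 lower at 4 d, 1 higher from 4 h to 2 d, and 2 higher and 1 lower from 2 d to 4 d. Of 12671 tested genes 3018 were higher and 1106 lower at 2 d, and 7016 and 1259 at 4 d. From 4 h to 2 d 2258 genes were higher, and from 2 d to 4 d 4189 were higher and 333 lower. The causes of these changes were not tested. Depth limits RPL39L, RPS10, RPL3L and RPL10L, and 3 libraries a group limit all comparisons.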
